A study of Mus musculus with 12 samples.

Results

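SF3a and SF3b are protein complexes that join the U2 small nuclear RNA and its core proteins to form the U2 small nuclear ribonucleoprotein (U2 snRNP) of the spliceosome. Expression and exon use were followed for the 10 genes that encode their subunits in the mouse macrophage line RAW264.7 after siRNA against 1 of them, Sf3a1. The 10 genes were taken by name and not by how they behaved: Sf3a1, Sf3a2 and Sf3a3 for SF3a, and Sf3b1, Sf3b2, Sf3b3, Sf3b4, Sf3b5, Sf3b6 and Phf5a for SF3b. They are 10 of 38215 genes in the gene count table, and 150 of 354841 exon bins (the non-overlapping pieces into which annotated exons are divided) belong to them. The question was whether the messages of the 9 partner subunits rose or fell when the message of Sf3a1 was depleted.

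RAW264.7 is an established, virus-transformed line of mouse macrophages. All 12 cultures received siRNA by nucleofection, either a pool that targets no gene (control siRNA) or a pool against SF3a1, and were left for 24 hours. Cells were then either given 20 ng/ml lipopolysaccharide (LPS, a bacterial cell wall component sensed by TLR4) for 4 hours or left without it, which gave 4 groups: control siRNA, control siRNA with LPS, SF3a1 siRNA, and SF3a1 siRNA with LPS. Each group had 3 libraries of polyadenylated RNA that the study calls biological replicates, so that the control groups carried siRNA and nucleofection as well. A single pool was used against SF3a1, so loss of the target and other effects of that pool cannot be told apart. Replicates are given below in the order 1, 2, 3.

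During splicing the U2 snRNP binds the branch point near the 3′ end of the intron, where the adenosine that attacks the 5′ splice site is bulged out of the duplex formed with the small nuclear RNA. SF3b holds that duplex: the HEAT-repeat protein encoded by Sf3b1 clamps around it, and the product of Phf5a helps to form the pocket for the adenosine. SF3a bridges SF3b and the rest of the particle, and the SF3a subunits are needed for a functional U2 snRNP to form.

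Between 12746019 and 41091887 reads per library were assigned to genes, and every subunit gene had at least 432 counts in every library. Replicate 1 of each group combined 2 sequencing runs and was the deepest of its group. Within each group it also stood further from replicates 2 and 3 than these did from each other: chi-square per degree of freedom over genes was 39.6 to 118 in pairs with replicate 1 and 8.85 to 45.4 between replicates 2 and 3, a statistic that grows with depth, and all replicates differed beyond sampling noise. The share of reads that fell outside annotated exons was 17.8% to 19.8% in the 6 control siRNA libraries. It was 27.2%, 21.6% and 20.8% with SF3a1 siRNA and 19.9%, 18.2% and 21.4% with SF3a1 siRNA and LPS. The part of this share in the gene results was not tested. The 8 macrophage markers examined (Csf1r, Adgre1, Cd68, Itgam, Lyz2, Cd14, Fcgr3 and Ptprc) were detected in every library, from 4.93 CPM for Fcgr3 to 9895 CPM for Lyz2, where CPM is counts per 1000000 counts after scaling for library composition. Markers of T, B and NK cells, epithelium, fibroblasts and endothelium reached at most 1.54 CPM, for Pecam1. Summed over the 8 macrophage markers, the level was 9360.0 to 10752 CPM with control siRNA, 11220.5 to 12894 with control siRNA and LPS, 12083 to 13388 with SF3a1 siRNA and 11433 to 15144 CPM with both. With SF3a1 siRNA, Lyz2 and Fcgr3 were called higher without LPS, whereas with LPS Csf1r and Fcgr3 were higher and Adgre1 and Ptprc lower. The part of these shifts in the subunit results was not tested.

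**Figure D1:**
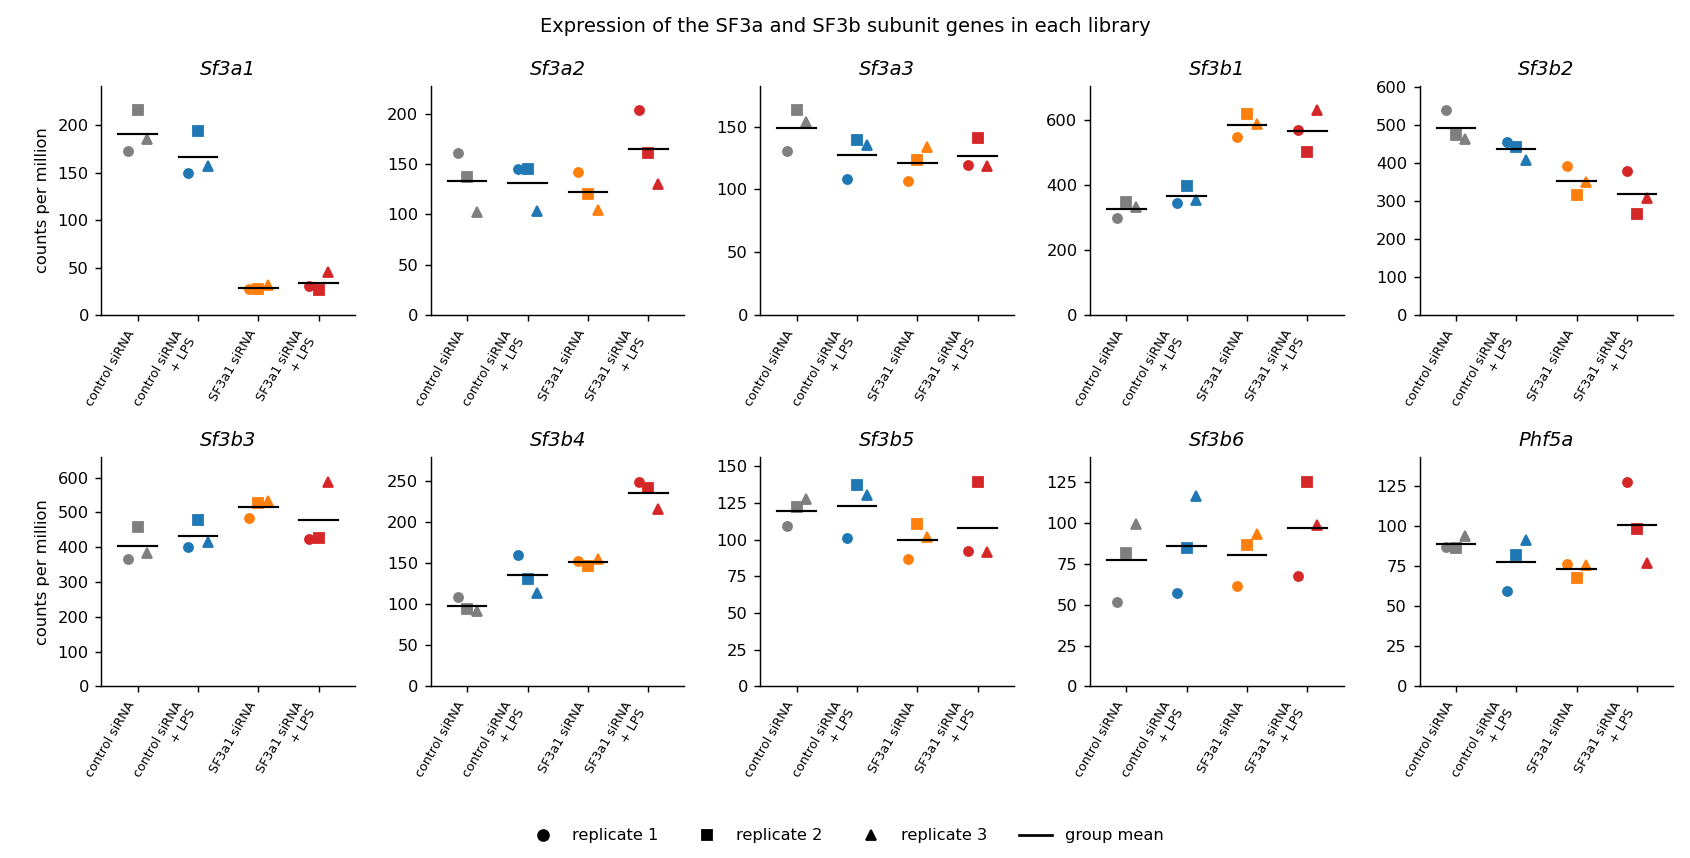
Expression of the 10 subunit genes in CPM (vertical axes, each starting at 0) in the 12 libraries, by group (horizontal axis), with replicates 1, 2 and 3 as circles, squares and triangles and the group mean as a bar. Sf3a1 is at or below 45.0 CPM in the 6 SF3a1 siRNA libraries, Sf3b1 and Sf3b4 are higher and Sf3b2 lower there than in the matching control libraries, and the other genes overlap with their control group in at least 1 of the comparisons.

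The message of Sf3a1 itself fell strongly with its siRNA. Sf3a1 (ENSMUSG00000002129, forward strand of chromosome 11 of mm10, 4160350 to 4182541) encodes the largest SF3a subunit, whose SURP domains contact other splicing proteins. It was measured at 173, 216 and 185 CPM with control siRNA, 150.02, 194 and 157 CPM with control siRNA and LPS, 27.1, 27.5 and 32.1 CPM with SF3a1 siRNA, and 30.3, 26.7 and 45.0 CPM with SF3a1 siRNA and LPS. The siRNA and control libraries did not overlap, and among the 6 siRNA libraries replicate 3 with LPS was the highest. Without LPS the siRNA left 15.1% of the control level (95% interval 11.1% to 20.5%, log2 fold change -2.73, SE 0.20, edgeR adjusted p = 1.14e-05). With LPS it left 20.4% (15.1% to 27.5%, log2 fold change -2.30, SE 0.20, adjusted p = 1.47e-05). The difference between these log2 fold changes was 0.43 (-0.16 to 1.02) and did not pass the test (interaction adjusted p = 0.594). In these bulk libraries, fewer cells that carry the message and less message per cell cannot be told apart.

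With Sf3a1 at this level, 3 of the 9 partner genes were called changed in each SF3a1 siRNA comparison at an adjusted p of 0.1 or less. Without LPS, Sf3b1 and Sf3b4 rose and Sf3b2 fell, and with LPS the calls were Sf3b1 and Sf3b4 higher and Sf3b2 lower. That is 33.3% of the partners, beside 33.8% of all 14983 genes tested without LPS and 38.8% with LPS, so the share of partners called was near the background in this fit. By direction, 2 of the 9 rose (22.2%), beside 13.7% of all genes without LPS and 18.4% with LPS, and 1 fell (11.1%), beside 20.1% and 20.4%. With 9 genes, 1 call more or less shifts such a share by 11.1 percentage points, and these differences were not tested. With the replicate block, as given below, the share of partners called was 55.6% without LPS and 44.4% with LPS, beside 47.1% and 50.9% of all genes. The median log2 fold change of the 9 partners was -0.13 without LPS and 0.17 with LPS, where the median of all tested genes was -0.02 and -0.04. The calls of the main test were thus 3 SF3b genes, in both directions, and neither SF3a partner was among them. With replicates 2 and 3 only, a setting chosen after seeing the data, the calls were again Sf3b1 (log2 fold change 0.83) and Sf3b4 (0.69) higher and Sf3b2 (-0.49) lower without LPS, and 0.59, 0.90 and -0.56 for the same genes with LPS. In that setting 41.3% of all genes tested were called without LPS and 45.1% with LPS.

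**Figure D2:**
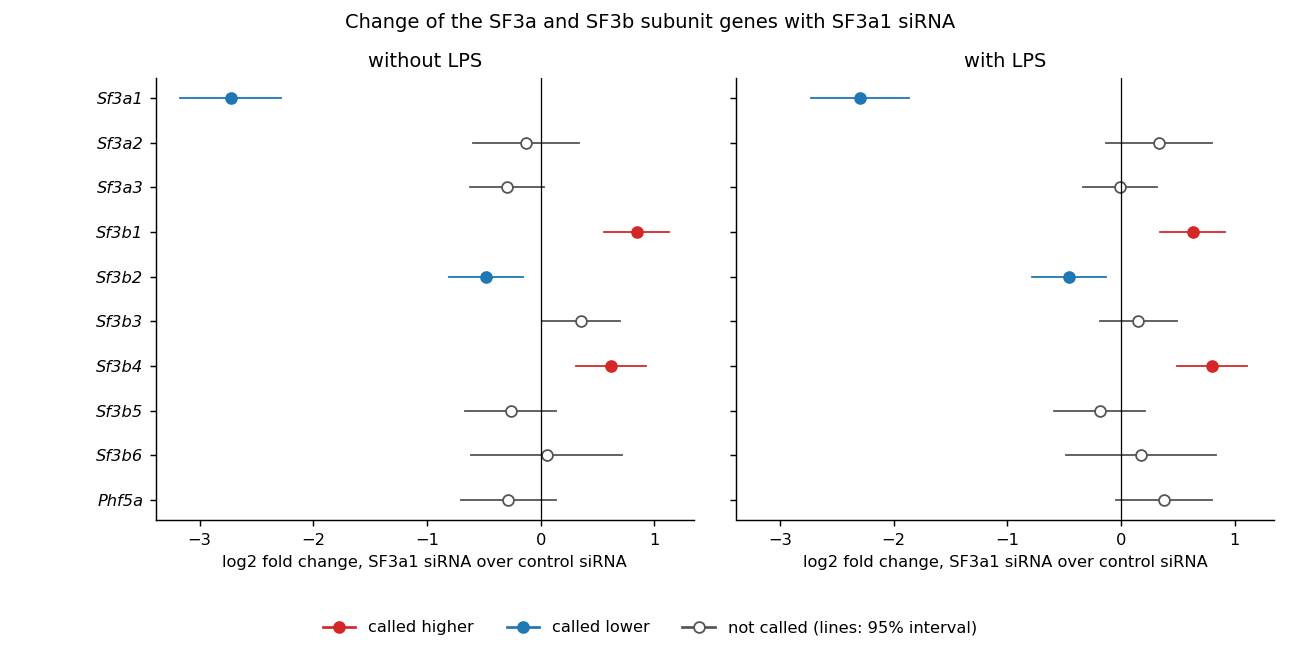
Log2 fold change of each subunit gene with SF3a1 siRNA over control siRNA (horizontal axis), without LPS (left) and with LPS (right), with lines for 95% intervals and filled points for genes called at an adjusted p of 0.1 or less. Sf3a1 lies at -2.73 and -2.30, Sf3b1 and Sf3b4 lie to the right of 0 and Sf3b2 to the left in both panels.

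Sf3b1 (ENSMUSG00000025982, reverse strand of chromosome 1, 54985169 to 55027481) encodes the scaffold of SF3b and is a recurrent target of mutation in myeloid disorders. It was measured at 299, 348 and 332 CPM with control siRNA, 347, 399 and 356 CPM with control siRNA and LPS, 548, 621 and 589 CPM with SF3a1 siRNA and 572, 501 and 631 CPM with SF3a1 siRNA and LPS. All 6 siRNA libraries were above all 6 control libraries. The rise was 1.80-fold without LPS (1.47 to 2.19, log2 0.84, SE 0.13, edgeR adjusted p = 6.02e-04) and 1.55-fold with LPS (1.27 to 1.89, log2 0.63, SE 0.13, adjusted p = 0.00314), and it was present in 3 of 3 same-numbered pairs of libraries in both. Sf3b1 was called in 19 of 19 alternative analyses of each comparison.

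Sf3b4 (ENSMUSG00000068856, forward strand of chromosome 3, 96172332 to 96177564) encodes an RNA-binding subunit that pairs with the product of Sf3b2 and contacts the intron upstream of the branch point. It was measured at 109, 94.2 and 91.8 CPM with control siRNA, 160.1, 131 and 114 CPM with control siRNA and LPS, 153, 146 and 155 CPM with SF3a1 siRNA and 249, 241 and 215 CPM with both. The 3 libraries with both treatments stood above every other library. Sf3b4 rose 1.54-fold with the siRNA without LPS (1.24 to 1.91, log2 0.62, SE 0.14, edgeR adjusted p = 0.00672) and 1.74-fold with LPS (1.40 to 2.16, log2 0.80, SE 0.14, adjusted p = 0.00123), in 3 of 3 same-numbered pairs each time. It was also the 1 subunit gene called with LPS, as given below. An antisense gene, Gm17690, overlaps part of the first exon of Sf3b4, and since the strand setting of the counting is not stated the reads there cannot be assigned by strand, although only 9 to 75 counts per library were given to Gm17690.

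Sf3b2 (ENSMUSG00000024853, reverse strand of chromosome 19, 5273932 to 5295455), whose product is the partner of the Sf3b4 protein, moved the other way. It was measured at 538, 474 and 462 CPM with control siRNA, 456, 442 and 407 CPM with control siRNA and LPS, 391, 316 and 349 CPM with SF3a1 siRNA and 377, 267 and 308 CPM with both. The siRNA and matching control groups did not overlap. The first exon of Sf3b2 overlaps an antisense gene, AC125059.3, whose counts were not analysed here. Sf3b2 fell to 0.716 of control without LPS (0.572 to 0.897, log2 -0.48, SE 0.15, edgeR adjusted p = 0.0311) and to 0.729 with LPS (0.582 to 0.913, log2 -0.46, SE 0.15, adjusted p = 0.0355), lower in 3 of 3 same-numbered pairs in both. The call depended on the setting: without LPS the adjusted p was 0.199, 0.113 and 0.102 when control replicate 1, 2 or 3 was left out and 0.136 without SF3a1 siRNA replicate 2. With LPS it was 0.115 without SF3a1 siRNA replicate 2, 0.113 without a filter on low counts and 0.142 with only the 2 groups fitted.

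Sf3b3 (ENSMUSG00000033732, chromosome 8, 110810239 to 110846787) encodes the large beta-propeller subunit that binds the scaffold. It was measured at 366, 459 and 382 CPM with control siRNA, 402, 478 and 415 CPM with control siRNA and LPS, 485, 525 and 533 CPM with SF3a1 siRNA and 423, 426 and 588 CPM with both. Without LPS the siRNA libraries were all above the controls, whereas with LPS the groups overlapped and replicate 3 was the highest of all. The first exon of Sf3b3 lies within an exon of Cog4 on the other strand, a gene with 483 to 2589 counts per library, so reads there cannot be assigned by strand. The log2 fold change was 0.35 without LPS (0.01 to 0.70, edgeR adjusted p = 0.119) and 0.15 with LPS (-0.19 to 0.49, adjusted p = 0.523). The first was past the threshold when replicate number was entered as a block, since same-numbered libraries deviated together (0.36, adjusted p = 0.0471). It was also past it without control replicate 2 (0.54, adjusted p = 0.0502) and without replicate 3 of SF3a1 siRNA with LPS (0.36, adjusted p = 0.0713).

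The other SF3a subunits, encoded by Sf3a2 and Sf3a3, which with the Sf3a1 protein complete the complex, were not called in the main test. Sf3a2 (ENSMUSG00000020211, forward strand of chromosome 10, 80798198 to 80804924) was measured at 161, 136.9 and 103 CPM with control siRNA, 145, 145 and 103 CPM with control siRNA and LPS, 142, 121 and 104 CPM with SF3a1 siRNA and 203, 161 and 130.1 CPM with both. Replicate 3 was the lowest of its group each time, and the groups overlapped. The siRNA changed it by a log2 fold change of -0.13 without LPS (-0.59 to 0.34, edgeR adjusted p = 0.726) and 0.33 with LPS (-0.13 to 0.80, adjusted p = 0.278). With the replicate block the latter was called, at 0.33 (adjusted p = 0.0228), and so was the difference between both effects, at 0.44 (adjusted p = 0.0970, beside 0.46 and 0.625 without the block). The first exon of Sf3a2 overlaps exons of Plekhj1 on the other strand, a gene with 655 to 3863 counts per library, so part of the reads there may belong to either gene or to none.

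Sf3a3 (ENSMUSG00000028902, forward strand of chromosome 4, 124714776 to 124732460) was measured at 130.5, 163 and 153 CPM with control siRNA, 108, 139 and 135 CPM with control siRNA and LPS, 107, 123 and 134 CPM with SF3a1 siRNA and 119, 141 and 119 CPM with both. The groups overlapped in both comparisons. Its log2 fold change with the siRNA was -0.30 without LPS (-0.62 to 0.03, edgeR adjusted p = 0.172) and -0.01 with LPS (-0.34 to 0.31, adjusted p = 0.964). The first passed with the replicate block (-0.29, adjusted p = 0.0428) and was lower in 3 of 3 same-numbered pairs. The intervals leave room for a fall to 0.650 of control and a rise to 1.02-fold without LPS, and for 0.791 to 1.24-fold with LPS.

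The 3 smallest SF3b proteins are encoded by Phf5a, Sf3b5 and Sf3b6, the last of which sits close to the branch point adenosine. Phf5a (ENSMUSG00000061360, chromosome 15, 81864520 to 81871911) was measured at 87.1, 86.5 and 93.8 CPM with control siRNA, 59.9, 82.3 and 91.6 CPM with control siRNA and LPS, 76.3, 67.7 and 75.8 CPM with SF3a1 siRNA and 128, 98.5 and 76.9 CPM with both. Without LPS all 3 siRNA libraries were below the controls, and with LPS 2 of 3 same-numbered pairs were higher. The log2 fold changes were -0.28 without LPS (-0.70 to 0.13, edgeR adjusted p = 0.319) and 0.38 with LPS (-0.04 to 0.80, adjusted p = 0.162). Their difference, 0.66 (0.07 to 1.25), had an adjusted p of 0.303. Without replicate 3 of SF3a1 siRNA with LPS, the effect with LPS was 0.54 and called (adjusted p = 0.0566), whereas with replicates 2 and 3 only it was 0.01 (adjusted p = 0.967).

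Sf3b5 (ENSMUSG00000078348, chromosome 10, 13005343 to 13009183), a gene of a single exon, was measured at 109, 122 and 128 CPM with control siRNA, 101, 136.9 and 131 CPM with control siRNA and LPS, 87.1, 110.4 and 102 CPM with SF3a1 siRNA and 92.4, 139 and 91.5 CPM with both. Sf3b6 (ENSMUSG00000037361, chromosome 12, 4817544 to 4827659) was measured at 51.9, 81.6 and 99.3 CPM, 57.4, 84.9 and 117 CPM, 61.3, 86.6 and 93.5 CPM, and 67.6, 125 and 98.9 CPM in the same groups. All groups of both genes overlapped, and replicate 1 of Sf3b6 was the lowest of its group in all 4. The log2 fold change of Sf3b5 was -0.26 without LPS (-0.67 to 0.14, edgeR adjusted p = 0.335) and -0.19 with LPS (-0.59 to 0.21, adjusted p = 0.495). Without replicate 2 of SF3a1 siRNA with LPS the latter was -0.41 and called (adjusted p = 0.0837). For Sf3b6 the values were 0.05 (-0.61 to 0.71, adjusted p = 0.927) and 0.17 (-0.49 to 0.84, adjusted p = 0.722), with the widest intervals of the 10 genes.

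With the replicate block, the number of subunit genes called, Sf3a1 included, went from 4 to 6 of 10 without LPS and from 4 to 5 with LPS. Of the 9 partners this was 5 without LPS and 4 with LPS. The genes added were Sf3a3 and Sf3b3 without LPS and Sf3a2 with LPS, so that under the block 3 subunit genes were higher and 3 lower without LPS, and 3 higher and 2 lower with LPS.

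To compare the genes with each other, counts were divided by length and given as FPKM, that is, CPM divided by the annotated exon length in kilobases. On this scale, with control siRNA, the levels ran from 72.0 ± 5.99 (SD, n = 3) for Sf3b2 through Sf3a3 (53.5 ± 5.98), Sf3a2 (50.2 ± 11.001), Sf3b4 (45.5 ± 4.32), Phf5a (41.2 ± 1.87), Sf3b3 (36.8 ± 4.56), Sf3b5 (31.2 ± 2.48), Sf3a1 (31.1 ± 3.61) and Sf3b1 (28.7 ± 2.21) to 27.2 ± 8.41 FPKM for Sf3b6. On this scale the highest level was 2.65 times the lowest, a ratio of 4.19 with coding lengths, 4.89 with the longest transcript and 6.70 with bin counts. The bin ratio leaves out Phf5a and counts a read in each bin it overlaps. Its lengths are those of the coding transcript for Sf3b1, Sf3b2, Sf3b3 and Sf3b6 only, so it is not comparable with the other ratios. In the order by annotated exon length, 7 of the 9 neighbouring pairs had overlapping libraries. Those that did not overlap were Sf3b2 and Sf3a3, and Sf3b3 and Sf3b5. With SF3a1 siRNA, Sf3a1 was the lowest of the 10, at 4.71 ± 0.45 FPKM without LPS and 5.53 ± 1.58 with LPS, and its libraries did not overlap with those of the next gene, Sf3b5 (26.0 and 28.1 FPKM). Sf3b4 moved from rank 4 with control siRNA to rank 1 with SF3a1 siRNA (69.9 FPKM), and from rank 2 with control siRNA and LPS to rank 1 with both (109 FPKM), apart from the gene below it in both.

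The order depended on the length used. Retained-intron transcripts lengthen Sf3b1, Sf3b2, Sf3b3 and Sf3b6 in the annotation, and the annotated length of Sf3b5 (3841 bases) exceeds its RefSeq length (734 bases). With the length of the longest protein-coding transcript, and the RefSeq length for Sf3b5, the highest levels with control siRNA were those of Sf3b5 (163 FPKM) and Sf3b2 (152 FPKM), and the lowest was that of Sf3a1 (38.9 FPKM). On this scale Sf3b4 was next to the lowest, at 51.3 FPKM with control siRNA, and second to Sf3b5 with SF3a1 siRNA and LPS, at 123 FPKM.

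**Figure D3:**
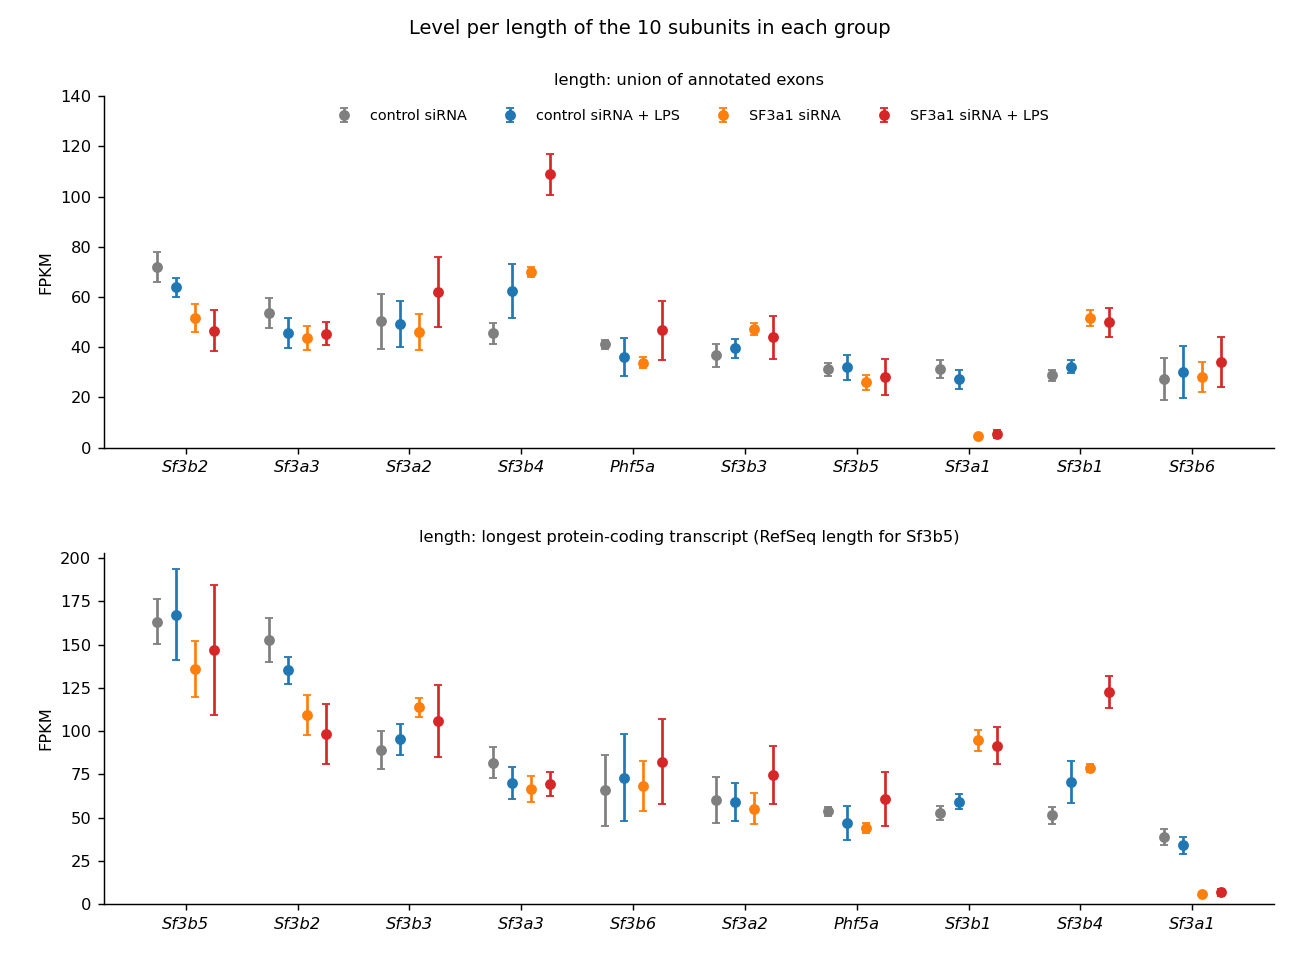
Level of each subunit gene in FPKM (vertical axes from 0) in the 4 groups, as the mean of 3 libraries with bars for the SD, with genes ordered by their level with control siRNA, using the union of annotated exons (top) or the longest protein-coding transcript (bottom) as the length. Sf3a1 falls to 4.71 and 5.53 FPKM with its siRNA in the top panel, and Sf3b4 reaches 109 FPKM with siRNA and LPS.

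Summed over genes on the scale of annotated exon length, the 2 SF3a partners stood at 104 ± 8.73 FPKM (SD, n = 3) with control siRNA, 95.04 ± 8.68 with control siRNA and LPS, 89.6 ± 2.49 with SF3a1 siRNA and 107 ± 14.2 with both. The 7 SF3b genes together stood at 283 ± 5.79, 296 ± 12.9, 308 ± 8.84 and 358 ± 9.24 FPKM in the same order. The SF3b sum was higher with the siRNA than in the matching control in every library, while the SF3a partners were lower with the siRNA in every library without LPS and overlapped with LPS, where the sum was higher with the siRNA in 3 of 3 same-numbered pairs. With coding lengths the SF3b sums were 628, 647, 645 and 709 FPKM. On that scale the siRNA libraries without LPS (613 to 665 FPKM) overlapped with their controls (598 to 644) but were higher in 3 of 3 same-numbered pairs, while those with LPS (693 to 739) stayed above theirs (592 to 684).

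With LPS against no LPS, 1 of the 10 subunit genes was called in each siRNA condition. Sf3b4 rose 1.37-fold with LPS under control siRNA (1.11 to 1.70, log2 0.46, SE 0.14, edgeR adjusted p = 0.0311), where 32.1% of all genes tested were called, and 1.56-fold under SF3a1 siRNA (1.26 to 1.93, log2 0.64, SE 0.14, adjusted p = 0.0156), where 10.7% were called. The libraries with and without LPS did not overlap, and Sf3b4 was higher in 3 of 3 same-numbered pairs both times. Under control siRNA the call was lost without control replicate 2 (adjusted p = 0.106) or 3 (0.113) and without replicate 1 with LPS (0.121) or a filter on low counts (0.137). The other 9 genes had log2 fold changes of -0.22 to 0.17 under control siRNA and -0.15 to 0.47 under SF3a1 siRNA. The highest of these was Phf5a under SF3a1 siRNA (adjusted p = 0.200, called at 0.63 and 0.0825 without replicate 3 with LPS). With the replicate block, Sf3a2 was called as well under SF3a1 siRNA (0.42, adjusted p = 0.0165), which made 2 genes of 10 beside 20.8% of all genes, and still 1 of 10 under control siRNA beside 43.9%.

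For the difference in siRNA effect between cells with and without LPS, the edgeR interaction test called 0 of the 10 genes, where 3.47% of all genes were called. At an unadjusted p under 0.05 the same fit had 1 of the 10 genes, Phf5a. The share of all genes at that level is not given here, so nothing is read from this count. The DESeq2 Wald test called 0 partners, beside 392 genes up and 527 down of 14997. Limma-voom also called 0 partners, beside 224 genes up and 270 down of 14983. With so few calls over all genes, nothing is read from these zeros. EdgeR with the replicate block called 1 partner, Sf3a2, beside 11.7% of all genes.

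The rest of the U2 snRNP and of the machinery that finds the 3′ splice site was followed through 27 further genes, all of which were tested. Without LPS 2 of them rose and 4 fell with SF3a1 siRNA, which is 22.2% of the list, and with LPS 3 rose and 4 fell, which is 25.9%. Of all genes, 33.8% and 38.8% were called, as given above, and the difference between the list and this background was not tested. The median log2 fold change of the list was -0.12 without LPS and 0.13 with LPS. None of the 7 Sm ring genes (Snrpb to Snrpg), which form the core shared by spliceosomal particles, and neither of the U2-specific genes Snrpa1 and Snrpb2 was called by edgeR in either comparison, nor had any of these 9 an unadjusted p under 0.05. Among the 10 genes of proteins associated with U2, 5 were called in each comparison, and among the 8 genes of branch point and 3′ splice site recognition 1 was called without LPS and 2 with LPS. With the replicate block the list had 8 calls in each comparison (2 up and 6 down, and 4 up and 4 down), which is 29.6% of the list beside 47.1% and 50.9% of all genes under the block. The added genes were Snrpd1 (-0.37, adjusted p = 0.0726) and U2af2 (-0.23, 0.0810) without LPS, and Dhx15 (0.30, 0.0433) with LPS.

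Ddx42, which encodes a DEAD-box RNA helicase that associates with SF3b, fell most in this list. It was measured at 82.8, 96.8 and 93.4 CPM with control siRNA, 89.7, 90.0 and 84.4 CPM with control siRNA and LPS, 29.97, 32.8 and 34.0 CPM with SF3a1 siRNA and 29.3, 33.8 and 35.5 CPM with both. The 6 siRNA libraries lay within 29.3 to 35.5 CPM, far from the controls. The fall was to 0.354 of control without LPS (0.292 to 0.431, edgeR adjusted p = 1.97e-05) and to 0.373 with LPS (adjusted p = 2.02e-05).

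Rbm5 and Rbm10, related RNA-binding proteins that regulate alternative exons, also fell. Rbm5 went from 115, 90.7 and 102 CPM to 54.3, 41.1 and 45.7 CPM without LPS, and from 119.5, 95.6 and 109 CPM to 49.5, 42.4 and 48.8 CPM with LPS. The edgeR log2 fold changes of Rbm5 were -1.12 (adjusted p = 2.49e-04) and -1.21 (adjusted p = 1.37e-04). Those of Rbm10 were -0.72 (adjusted p = 0.0247) and -0.81 (adjusted p = 0.0130), and without LPS the call was lost without control replicate 1 (-0.56, adjusted p = 0.114) or SF3a1 siRNA replicate 2 (-0.61, adjusted p = 0.108). U2surp, a U2-associated SR-related protein, fell by 0.95 and 0.77 on the log2 scale (adjusted p = 0.00147 and 0.00479).

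The genes that rose were Rbm39, a relative of the large U2AF subunit that takes part in 3′ splice site recognition, and Ddx46, the ATPase related to yeast Prp5 that acts when U2 joins the branch point. Rbm39 went from 203, 211 and 219 CPM to 310.4, 394 and 379 CPM without LPS and from 218, 254 and 272 CPM to 371, 382 and 384 CPM with LPS, so that no siRNA library overlapped a control. Its rise was 1.71-fold (edgeR adjusted p = 0.00108) and 1.53-fold (0.00392), and that of Ddx46 was 1.61-fold (0.0104) and 1.66-fold (0.00620). U2af1, named after its values were seen, was the 1 further gene called with LPS (log2 fold change 0.42, adjusted p = 0.0764). That call was lost in 6 of 19 alternatives, among them those without SF3a1 siRNA replicate 2 (0.24, adjusted p = 0.281), control replicate 2 (0.37, 0.203) or control replicate 3 with LPS (0.40, 0.164), and its interaction adjusted p was 0.730.

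**Figure D4:**
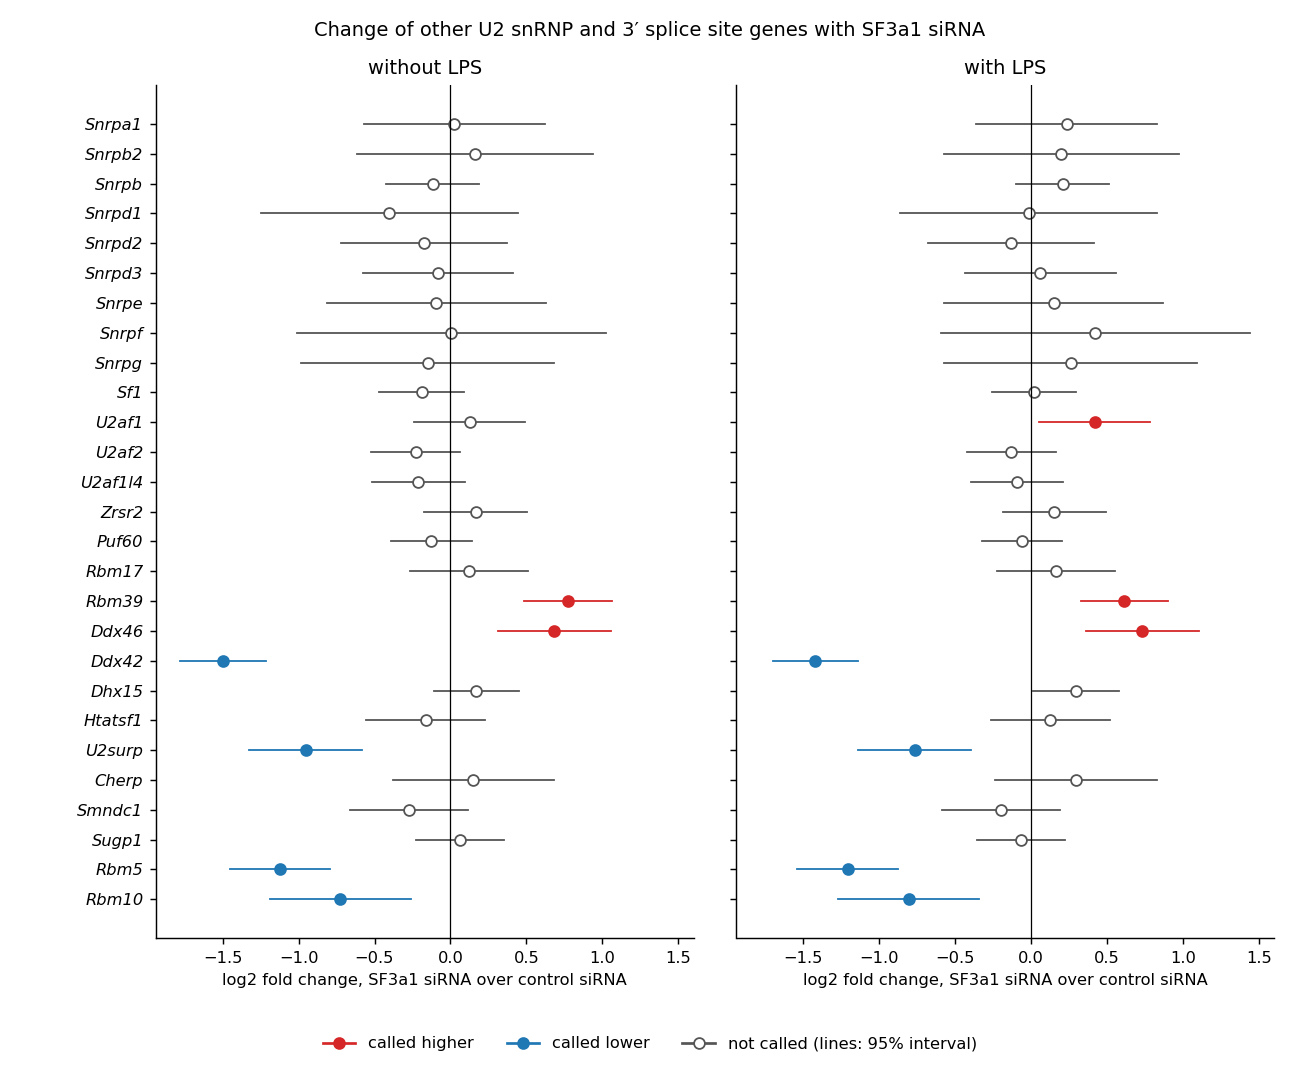
Log2 fold change with SF3a1 siRNA over control siRNA (horizontal axis) of the 27 other U2 snRNP and 3′ splice site genes, without LPS (left) and with LPS (right), with lines for 95% intervals and filled points for genes called. Ddx42, Rbm5, U2surp and Rbm10 lie to the left in both panels and Rbm39 and Ddx46 to the right, while the intervals of the Sm ring genes span 0.

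With LPS, 2 of the 27 genes (7.41%) were called under control siRNA, where 32.1% of all genes were, namely Smndc1, which encodes a survival motor neuron related splicing factor (log2 fold change 0.48, edgeR adjusted p = 0.0678), and Htatsf1, which encodes a U2-associated protein (-0.45, adjusted p = 0.0884). Under SF3a1 siRNA 1 was called (3.70%), beside 10.7% of all genes, and this was Smndc1 (0.56, adjusted p = 0.0877). Both genes were named after their values were seen, and their calls were easily lost. Htatsf1 was called in 10 of 19 alternatives, and not with DESeq2 size factors (adjusted p = 0.103), the DESeq2 Wald test (0.106), no filter (0.113) or only the 2 groups (0.202). Smndc1 under control siRNA was called in 16 of 19, and not without a filter (0.134). Under SF3a1 siRNA it was called in 10 of 19, and not with limma-voom (0.106). With the block the calls were 5 and 4, beside 43.9% and 20.8% of all genes, the added ones being Snrpb2 (0.40), Ddx46 (-0.28) and U2surp (-0.33) under control siRNA, and Snrpa1 (0.31), Snrpb (0.32) and Snrpb2 (0.45) under SF3a1 siRNA.

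Among 9303 genes that averaged 10 CPM or more, the pattern over the 12 libraries most like that of Sf3a1 was that of Ddx42 (Pearson r of log2 CPM = 0.990, n = 12), followed by Gm10167 (0.988), Vti1a (0.987), Ahcyl1 (0.984) and Suds3 (0.983). The libraries form 2 separated sets by their Sf3a1 level, 150.02 to 216 and 26.7 to 45.0 CPM, and r mostly describes that division. Of the partners, Sf3b2 was by Pearson r the most like Sf3a1 (0.82, rank 950) and Sf3b1 the most opposed (-0.91, rank 9165). Between them were Sf3b5 (0.49), Sf3a3 (0.48), Phf5a (-0.06), Sf3b6 (-0.14), Sf3a2 (-0.20), Sf3b3 (-0.53) and Sf3b4 (-0.76). By Spearman correlation Sf3b2 was again the most like Sf3a1 (0.80), but the most opposed was Sf3b4 (-0.73), beside -0.62 for Sf3b1. Sf3a3 (0.52) then stood above Sf3b5 (0.32).

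The exon bins asked a different question, whether a piece of a gene was used more or less than the rest of the same gene. Bin counts were used for 11 libraries, with 2 for control siRNA with LPS, and 145 of the 150 bins of the subunit genes were tested. Of these, 1 was called without LPS and 1 with LPS, beside 0.626% and 0.492% of all 153624 bins tested. Both called bins lay in introns of the protein-coding transcript of an SF3a gene and were used more with SF3a1 siRNA. A single call among 145 bins is near the background share, so no pattern of the subunit genes is read from these calls. Bin 8 of Sf3a2 passed the low-count filter only through libraries with SF3a1 siRNA. Both calls were lost with limma and without the filter, as given below. At an unadjusted p under 0.05 there were 3 and 6 of the 145 bins, beside 3.39% and 3.99% of all bins tested. With LPS as the treatment edgeR called none of the 145 bins under either siRNA, beside 0.0801% and 0.0254% of all bins, no bin had an unadjusted p under 0.05, and limma and the DEXSeq model called 0. The interaction called 0 bins of the subunit genes, with 1 at an unadjusted p under 0.05, and 0 by limma. The shares of all bins for the interaction are not given here, so nothing is read from these counts.

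The bin called without LPS was bin 12 of Sf3a3 (chr4:124723017-124723382, mm10), the first 366 bases of the 654-base intron 8 of the coding transcript Sf3a3-201, annotated as exonic only in the shorter transcript Sf3a3-202. It held 23, 11 and 11 counts with control siRNA, 16 and 12 with control siRNA and LPS, 32, 32 and 18 with SF3a1 siRNA and 44, 30 and 31 with both. As a share of all bin counts of the gene this was 0.205% ± 0.0239 (SD, n = 3), 0.333% (n = 2), 0.724% ± 0.161 (n = 3) and 0.735% ± 0.0761 (n = 3), and every siRNA library was above every control library. The log2 change in use relative to the rest of the gene was 1.26 without LPS (edgeR adjusted p = 0.0662) and 0.84 with LPS (adjusted p = 1, unadjusted p = 0.0392 from the same fit). The call without LPS was lost when any single control or siRNA library without LPS was left out (adjusted p from 0.102 to 0.568, log2 change 1.11 to 1.34), with limma (adjusted p = 0.223) and without a filter on low counts (adjusted p = 0.101).
The beginning of this stretch is shown because it starts at the 5′ splice site, whose first 2 intronic bases are in capitals.
Sf3a3 bin 12, first 120 bases, chr4:124723017-124723136, forward strand: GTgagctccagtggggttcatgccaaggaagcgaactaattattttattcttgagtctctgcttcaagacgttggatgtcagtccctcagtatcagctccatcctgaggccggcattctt

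The bin called with LPS was bin 8 of Sf3a2 (chr10:80802500-80802791), the last 292 bases of the 347-base intron 4 of the coding transcript Sf3a2-203, exonic only in the retained-intron transcript Sf3a2-201. It held 6, 2 and 1 counts with control siRNA, 0 and 1 with control siRNA and LPS, 1, 2 and 9 with SF3a1 siRNA and 16, 17 and 11 with both. The share of the gene's bin counts was 0.0394%, 0.0183%, 0.160% and 0.280% in the 4 groups. It was 0.151%, 0.431% and 0.258% in the libraries with both treatments, all above the matching controls. Replicate 3 of SF3a1 siRNA without LPS, at 0.408%, was higher than 2 of these 3, while its replicates 1 and 2 stood at 0.0154% and 0.0579%. The log2 change in use was 3.12 with LPS (edgeR adjusted p = 0.0443) and 0.99 without LPS (adjusted p = 1), and the difference of 2.12 was not called (interaction adjusted p = 1.0). The control value rests on 1 count in 2 libraries. No control library held more than 6 counts, so the bin passed the low-count filter only through libraries with SF3a1 siRNA, and its p is no support by itself. The call was lost without control replicate 1 (log2 1.94, adjusted p = 1.0), control replicate 2 (4.86, 0.134) or SF3a1 siRNA replicate 2 with LPS (2.80, 0.271), without the filter (3.10, 0.128) and with limma (0.499).
The whole bin is shown because it is the stretch in which these reads were counted, and it ends in the AG of the 3′ splice site, in capitals.
Sf3a2 bin 8, chr10:80802500-80802791, forward strand: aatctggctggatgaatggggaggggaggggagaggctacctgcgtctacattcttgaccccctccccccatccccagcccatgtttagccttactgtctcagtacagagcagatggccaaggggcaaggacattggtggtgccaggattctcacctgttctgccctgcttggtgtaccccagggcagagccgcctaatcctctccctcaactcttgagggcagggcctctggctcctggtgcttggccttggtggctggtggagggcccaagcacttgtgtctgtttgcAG

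The 2 called stretches differed in base composition, with 59.6% G and C in Sf3a2 bin 8 and 41.8% in Sf3a3 bin 12. The 3′ ends of 3 measured introns of SF3a genes are compared below because U2 binds just upstream of this end, where a run of pyrimidines (C and T) precedes the AG in capitals. Within the 20 bases before the AG, Sf3a2 intron 4 had 12 pyrimidines (60%), Sf3a1 intron 12 had 15 (75%) and Sf3a3 intron 6 had 17 (85%). These counts describe 3 introns and were not tested. The Sf3a3 intron shown is intron 6, in which no bin was called. The called bin 12 of Sf3a3 lies in intron 8 and does not reach its 3′ end. Intron 7 of Sf3a2, whose 3′ end lies in bin 12 of that gene, is not shown.
Sf3a2 intron 4, chr10:80802742-80802791: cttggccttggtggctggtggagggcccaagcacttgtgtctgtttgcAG
Sf3a1 intron 12, chr11:4178021-4178070: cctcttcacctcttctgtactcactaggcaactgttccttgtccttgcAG
Sf3a3 intron 6, chr4:124721974-124722023: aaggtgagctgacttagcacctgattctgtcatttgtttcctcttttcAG

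In all, 9 bins of the subunit genes lay in introns of the coding transcript, in Sf3a1, Sf3a2, Sf3a3 and Sf3b4, and 7 had enough counts to be tested. The mean share of the gene's counts was higher with SF3a1 siRNA in 8 of the 9 bins without LPS and in 9 of 9 with LPS, beside 48.7% and 49.7% of 209598 bins with counts in genes of at least 2 bins. Every siRNA library was above every control library in 2 of the 9 without LPS and in 4 with LPS, beside 5.18% and 9.88% of those bins. Most of those bins are exonic, and the share over intronic bins alone was not computed. Summed over such bins, the intronic share of Sf3a3 was 0.502% with control siRNA and 1.25% with SF3a1 siRNA, and 0.509% and 1.17% with LPS, and the libraries did not overlap in either comparison. That of Sf3a2 was 0.554% and 0.969%, and 0.483% and 1.06% with LPS, where the groups overlapped (0.538% in siRNA replicate 1 and 0.602% in control replicate 1). Most of the Sf3a2 share lay in bin 12, a stretch of 19 bases that is exonic in Sf3a2-204 and Sf3a2-201 and was not called (0.438% with control siRNA and 0.666% with SF3a1 siRNA, and 0.423% and 0.662% with LPS). In the depleted gene itself, Sf3a1, the share was 0.444%, 0.242% and 0.410% with control siRNA and 1.71%, 0.898% and 0.347% with SF3a1 siRNA. These groups overlapped, and the siRNA mean of 0.985% was 0.623% without replicate 1. With LPS the means for Sf3a1 were 0.434% and 0.559%, also with overlap, and as few as 0 counts fell in a bin. In Sf3b4 it was 0.296% and 0.207%, and 0.191% and 0.279% with LPS. The share of reads outside annotated exons was also higher in the SF3a1 siRNA libraries without LPS, as given above, and its part in these values was not tested.

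**Figure D5:**
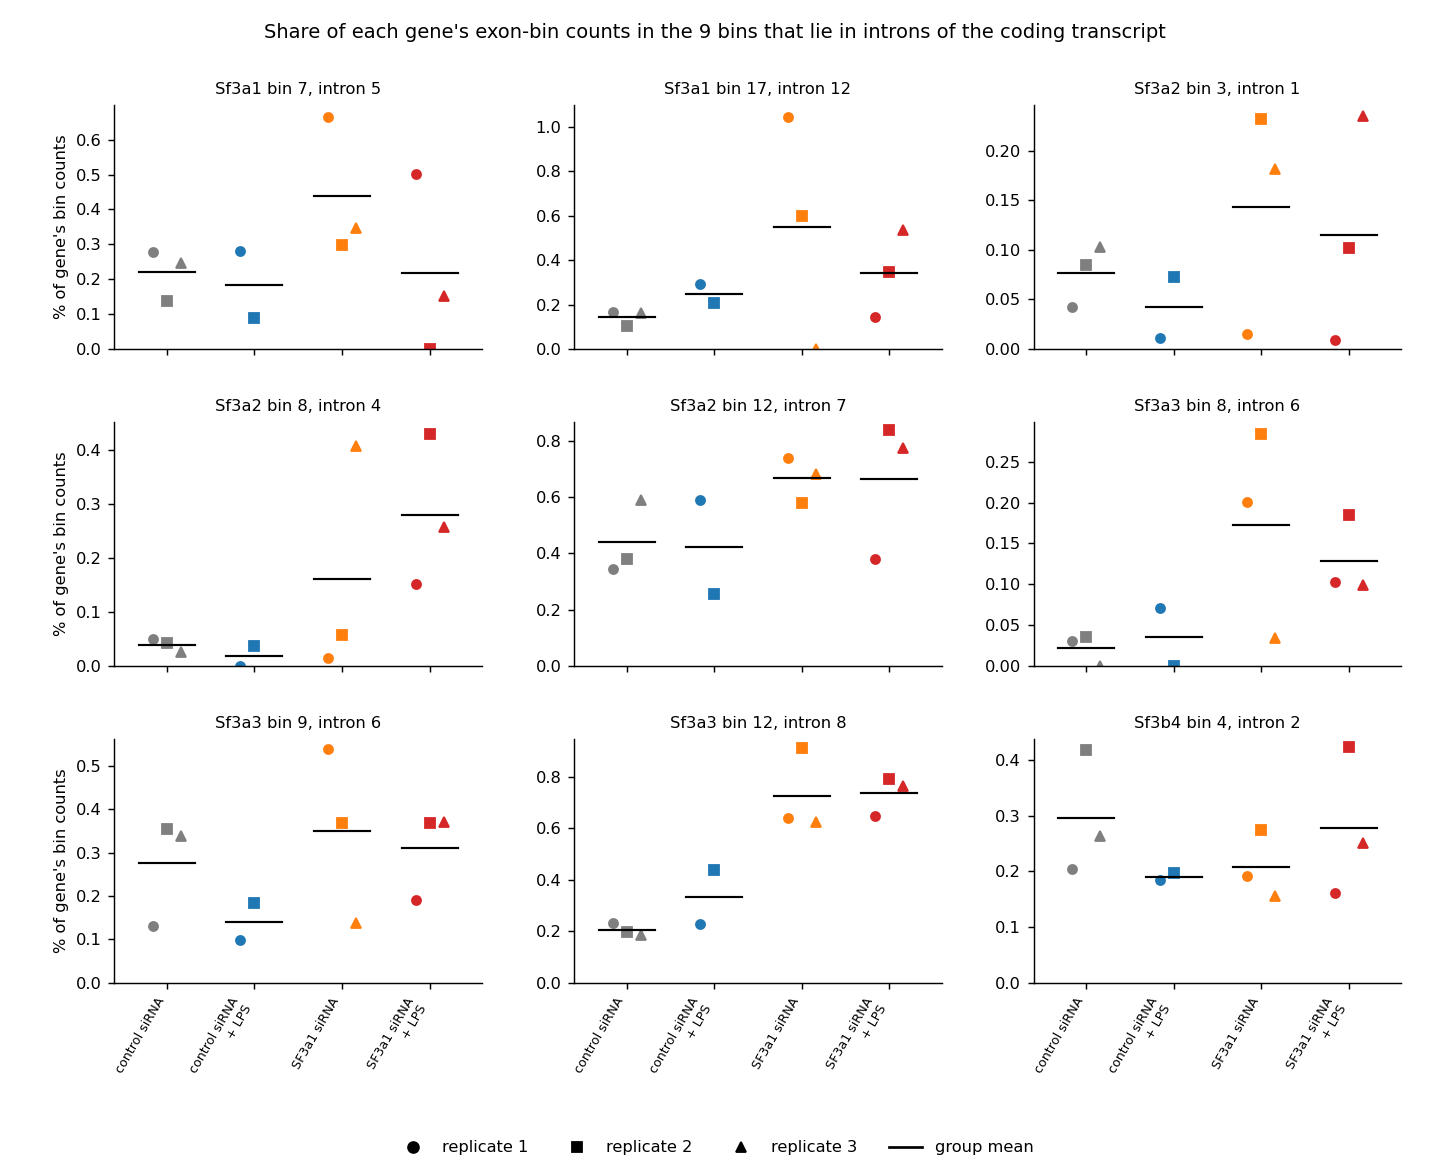
Share of each gene's exon-bin counts, in percent (vertical axes from 0), that fell in each of the 9 bins lying in introns of the coding transcript, by group (horizontal axis), with replicates as circles, squares and triangles and group means as bars. In Sf3a3 bin 12 all siRNA libraries lie above all control libraries, and in Sf3a2 bin 8 the libraries with siRNA and LPS lie above their controls.

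The whole of intron 12 of Sf3a1 (450 bases, bin 17) had a log2 change in use of 1.39 without LPS at an edgeR adjusted p of 0.817, with 0 to 11 counts in the siRNA libraries. Exonic bins showed no call: in the 133 tested that could be placed on the annotation, the lowest adjusted p with the siRNA was that of bin 3 of Sf3a1, exon 2, with LPS (log2 -0.73, adjusted p = 0.745). The bins of Sf3b1, Sf3b2, Sf3b3 and Sf3b6 held only exons of the coding transcript, so introns of these 4 genes were not measured, and the single bin of Sf3b5 cannot be compared with another. The 5 tested bins of Phf5a, none of which was called, could not be placed on the annotation used here.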

How the data were processed

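Polyadenylated RNA from 12 RAW264.7 cultures (4 groups of 3) was sequenced single-end by the authors on an Ion Proton, and replicate 1 of each group combined 2 runs. Per the study's methods and the submitters' processing notes, reads of at least 30 bases were aligned to mm10 with GSNAP, and uniquely aligned reads were counted per Ensembl gene with HTSeq. The authors deposited whole, unnormalised counts per gene (12 libraries) and, made with the counting script of DEXSeq, counts per exon bin (11 libraries; bins of replicate 3 of control siRNA with LPS were not analysed here). The strand setting is not given in the sources used here. Counts outside any feature or ambiguous between genes were left out of library sizes.

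From these counts, genes were tested with edgeR 4.0.16 (R 4.3.3) by the quasi-likelihood F test over all 12 libraries with a mean per group, TMM scaling and filterByExpr, which kept 14983 genes. Exon bins were tested with diffSpliceDGE on 153624 bins of 10609 genes. P-values were adjusted by Benjamini-Hochberg over all features tested and called at 0.1 or less, and they measure only the spread between these libraries. FPKM used TMM-scaled totals and GENCODE vM21 lengths. Gene positions, bins and sequences were read from GENCODE vM21 (mm10 coordinates), onto which the bins of 9 of the 10 genes could be matched by number. Both tests were tested on simulated data with known changes, where the bin test missed most of the smaller ones.

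Same-numbered libraries of different groups deviated from their group means together (correlation over genes 0.143 to 0.600 in 18 of 18 pairs). The 36 pairs of different number ran from -0.523 to 0.345 (median -0.308), with 10 of them over 0.1. Every negative value was in a pair with replicate 1. Between replicates 2 and 3, pairs of different number (0.040 to 0.345) overlapped with same-numbered ones (0.143 to 0.458). The separation thus mostly sets replicate 1 apart, and matched sets among replicates 2 and 3 are not established. Replicate numbers were taken to pair the samples on this basis, and a fit with replicate number as a block is given where it changed a call. Alternatives were DESeq2 1.42.0 size factors and Wald test, limma 3.58.1 (voom and diffSplice), the DEXSeq model fitted with DESeq2, no filter, only the 2 groups compared, and leaving out each library. The coding-length scale and a fit of replicates 2 and 3 only were chosen after seeing the data.

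The 10 members were taken by name, as stated at the start, but earlier results of these data were known by then. The same holds for the lists and the alternatives. All 10 subunit genes are named, as are genes of the 27-gene list called in a SF3a1 siRNA comparison (at most 6 for each, by adjusted p), every called bin, and the 5 genes of at least 10 CPM most correlated with Sf3a1.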

Additional observations from a re-analysis of the deposited data

How the results depend on the processing

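The calls of Sf3a1, Sf3b1 and Sf3b4 with SF3a1 siRNA were made in 19 of 19 alternatives with and without LPS. Sf3b2 was called in 15 of 19 alternatives without LPS (log2 fold change -0.56 to -0.31) and in 16 of 19 with LPS (-0.60 to -0.34). The 19 include leaving out each of the 12 libraries, also those of groups not compared, which touches a comparison only indirectly. The losses of Sf3b2 without LPS all came from leaving out a compared library, namely control replicate 1, 2 or 3 or SF3a1 siRNA replicate 2. With replicates 2 and 3 only, the numbers of subunit and other U2 genes called were within 1.5 times those of the main test in every comparison. The numbers of all genes called also moved between settings, and the counts below were not tested against them. Partner genes called lower without LPS numbered 1, or 2 with the replicate block and 2 with only the 2 groups fitted, and 0 to 1 when a library was left out. Of all genes, 3011 of 14983 were called lower, 3948 of 14983 with the block and 3217 of 14298 with only the 2 groups. With a library left out they were 2077 to 3249. Partner genes called lower with LPS numbered 1, or 0 without a filter and 0 with only the 2 groups fitted. Of all genes these were 3063 of 14983, 2874 of 28638 and 2234 of 14260. For LPS under control siRNA, partners called higher were 0 without a filter and 0 to 1 with a library left out. Beside these stood 2092 of 28638 genes without a filter and 1758 to 2163 genes with a library left out. For LPS under SF3a1 siRNA, partners called higher were 2 with the replicate block and 1 to 2 with a library left out. Beside these stood 1694 of 14983 genes with the block and 688 to 1164 genes with a library left out. For the interaction 1 partner was called higher with the replicate block, beside 980 of 14983 genes. Of the 27 other genes, those called higher with LPS under control siRNA were 0 without a filter, 2 with the replicate block and 0 to 1 with a library left out. Of all genes these were 2092 of 28638, 2819 of 14983 and 1758 to 2163. Genes of that list called lower were 0 with DESeq2 size factors, the DESeq2 Wald test, no filter or only the 2 groups. They were 3 with the replicate block and 0 to 1 with a library left out. Of all genes, those called lower in the same order were 2557 of 14983, 2643 of 18267, 2635 of 28638 and 2193 of 14428. With the block they were 3752 of 14983, and with a library left out 2205 to 2860. Under SF3a1 siRNA, genes of that list called higher with LPS were 0 with limma-voom, 4 with the replicate block and 0 to 1 with a library left out. Of all genes these were 916 of 14983, 1694 of 14983 and 688 to 1164. Bins called in subunit genes were 0 with limma and 0 without a filter in both SF3a1 siRNA comparisons, and 0 to 1 with a library left out. Of 153624 bins, limma called 613 higher and 177 lower without LPS, and 490 and 165 with LPS. Without a filter, of 237804 bins, 723 were higher and 173 lower without LPS, and 477 and 148 with LPS. The replicate block, which pairs same-numbered libraries, changed no call of a subunit gene, bin or listed gene other than those given in the report. The highest subunit level per length with control siRNA was 2.65 times the lowest, 4.89 times with the longest transcript as length and 4.19 with coding lengths. With bin counts, which leave out Phf5a and are not comparable, it was 6.70. Log2 fold changes that changed sign in an alternative were not called in the main test. That of Sf3a3 with the siRNA and LPS was 0.00106 with DESeq2 size factors, 0.00149 with the Wald test and 0.0425 with only the 2 groups. That of Sf3a2 with LPS under control siRNA was 0.000725, 5.85e-05 and 0.0265 in the same order, and the interaction of Sf3b2 was -0.0224 and -0.0231 in the first and second of these. With replicates 2 and 3 only, Sf3b6 with the siRNA without LPS was at -0.00648, Sf3a2 with LPS under control siRNA at 0.0469 and the interaction of Sf3b2 at -0.0717. With a library left out, the ranges were -0.25 to 0.13 for Sf3a2 and -0.070 to 0.36 for Sf3b6 with the siRNA without LPS. With the siRNA and LPS they were -0.12 to 0.055 for Sf3a3, -0.021 to 0.23 for Sf3b3 and -0.051 to 0.45 for Sf3b6. For LPS under control siRNA they were -0.18 to 0.15 for Sf3a2, -0.049 to 0.16 for Sf3b5 and -0.13 to 0.39 for Sf3b6. For LPS under SF3a1 siRNA they were -0.019 to 0.38 for Sf3a1, -0.028 to 0.13 for Sf3a3, -0.13 to 0.037 for Sf3b1 and -0.12 to 0.22 for Sf3b5. For the interaction they were -0.12 to 0.14 for Sf3b2, -0.15 to 0.18 for Sf3b5 and -0.15 to 0.40 for Sf3b6. The cause of these shifts was not tested. Counts of 0 to 17 limit what the Sf3a2 intron bin can show.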
